A study of Mus musculus with 46 samples.

Results

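The genes described here code the 4 mouse receptors for the Fc part of IgG that bear the Fc gamma name (Fcgr1, Fcgr2b, Fcgr3 and Fcgr4) and the common gamma chain (Fcer1g). They were chosen by symbol, as 5 of the 46264 genes in the deposited table, and all 5 were found. Their levels were followed in 46 bulk RNA libraries from a study of intravenous immunoglobulin (IVIG, pooled IgG given into a vein) in a mouse model of mucous membrane pemphigoid, in which antibodies to laminin 332, a basement membrane protein, lead to blisters.

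In this family Fcgr1, Fcgr3 and Fcgr4 code activating receptors. On myeloid cells they need the common gamma chain coded by Fcer1g, which carries the tyrosine motif that recruits the kinase Syk once antibody complexes cross-link the receptors. Fcgr2b codes the inhibitory receptor, whose own tail recruits the lipid phosphatase coded by Inpp5d, so that a cell carrying both kinds responds according to their balance. Fcgr1 binds single IgG molecules, whereas Fcgr2b and Fcgr3 bind mainly complexes, and Fcgr4 binds some IgG subclasses and not others.

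An experiment labelled Ics had 4 libraries at 0 h, titled unstimulated, and 4 each at 3 h and 6 h, titled stimulated. What Ics stands for and which cells were used is not given, and there was no unstimulated library at 3 h or 6 h, so time and stimulation cannot be told apart. The other 34 libraries were labelled by tissue and as IVIG or as PBS (phosphate-buffered saline). Blood and neutrophils had 5 libraries of each, monocytes had 3 IVIG and 5 PBS, and skin had 3 of each. The extraction notes call the neutrophils and monocytes bone marrow derived and the blood whole blood. Strain, sex, age, dose and the antibody each mouse received are not given in the sources used here, nor whether libraries of a group came from separate animals or cultures. The p-values therefore measure only the spread between these libraries, which may be technical. The labels hold both a condition and a treatment field, and the values of the 2 were not the same in 23 of the 34 tissue libraries; the condition, which matches the titles, was used.

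Library totals were 18965431 to 43176537 estimated counts. Tissue labels were checked with haemoglobin genes for blood, Krt5 and Krt14 for skin, S100a8 and S100a9 for neutrophils, and low levels of all of these for monocytes. No marker of monocytes themselves was required. In 9 of the 34 tissue libraries the markers went against the label, and 25 matched (6 blood, 8 neutrophil, 7 monocyte and 4 skin). Among the libraries labelled blood, PBS replicate 1 had neutrophil markers, IVIG replicate 2 the pattern taken for monocytes, and IVIG replicate 3 and PBS replicate 2 had skin markers. Neutrophil PBS replicate 1 and IVIG replicate 5, and skin PBS replicate 1 and IVIG replicate 3, had blood markers. Monocyte PBS replicate 1 had neutrophil markers. No library was given another label. Comparisons of tissues used the 25 matching libraries, and comparisons of IVIG with PBS hold for the names as deposited and are given with and without the 9. Tissue markers cannot check the names IVIG and PBS, so the matching libraries are not cleared of errors in these. In titles that carry S3, number 1 is IVIG for neutrophils but PBS for blood and monocytes. Number 5 is IVIG for neutrophils but PBS for blood. What these numbers stand for is not given. Of the matching monocyte libraries, 4 had fewer genes with at least 5 counts (8984 to 14408) than the other 3 (15682 to 16378). The titles of these 4 carry S5 or S2 and those of the other 3 carry S3. Gene number and title series therefore cannot be told apart in monocytes.

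On chromosome 1 of GRCm38 (GENCODE vM21), 4 of the genes lie near each other. They are Fcgr2b (chr1:170958617-170976547, minus strand), Fcgr4 (chr1:171018920-171029761, plus), Fcgr3 (chr1:171051174-171064935, minus) and Fcer1g (chr1:171229572-171234365, minus). Fcgr1 lies apart, at chr3:96282909-96293969 on the minus strand. Fcgr2b and Fcgr3 share coding sequence, which matters for any ratio of the pair, since reads from the shared stretch must be split between them by estimation. Of the 31-base words in Fcgr3 transcripts, 14.3% (233 of 1627) also occur in Fcgr2b transcripts, and 8.92% (324 of 3632) of those in Fcgr2b occur in another gene. The share was 1.31% for Fcgr4 and 0.0% for Fcgr1 and for Fcer1g. The longest identical coding run of Fcgr2b and Fcgr3 has 129 bases. It spans the end of exon 3 and the start of exon 4 in both genes (chr1:170967980-170968081 and chr1:170966674-170966700 in Fcgr2b; chr1:171057691-171057792 and chr1:171054167-171054193 in Fcgr3) and is shown to make that limit visible, on the coding strand.
Fcgr2b and Fcgr3, shared coding run: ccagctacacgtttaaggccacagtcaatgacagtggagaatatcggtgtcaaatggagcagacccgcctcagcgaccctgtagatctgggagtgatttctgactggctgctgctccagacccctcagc
An antisense gene, Gm38204, overlaps Fcgr2b. No source used here states that strand entered the counting, so reads of the pair cannot be told apart.

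The promoters of Fcgr1 and Fcgr4 are shown because these were the receptors that set skin apart from monocytes. Each is the stretch of 250 bases before the RefSeq start on GRCm38.p6, 5′ to 3′ on the strand of the gene, chr3:96293970-96294219 for Fcgr1 (minus) and chr1:171018676-171018925 for Fcgr4 (plus). Capitals mark matches, on either strand, to GAGGAA, the core read by the myeloid factor PU.1, and to TTCNNNGAA, the palindrome read by STAT factors.
Fcgr1 promoter: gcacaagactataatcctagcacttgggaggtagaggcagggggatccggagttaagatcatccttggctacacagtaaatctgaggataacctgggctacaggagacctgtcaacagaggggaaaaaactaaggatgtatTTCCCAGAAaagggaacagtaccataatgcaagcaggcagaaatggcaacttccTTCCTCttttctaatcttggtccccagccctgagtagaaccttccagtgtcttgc
Fcgr4 promoter: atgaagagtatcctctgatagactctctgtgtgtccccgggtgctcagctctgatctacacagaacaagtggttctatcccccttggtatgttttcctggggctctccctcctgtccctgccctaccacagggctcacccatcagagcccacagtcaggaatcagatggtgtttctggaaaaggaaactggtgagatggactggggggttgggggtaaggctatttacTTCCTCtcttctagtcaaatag
Each held 1 match to GAGGAA, as did the promoter of Fcgr3, and those of Fcgr2b and Fcer1g held none. The stretches taken for Fcgr2b and Fcgr3 lie inside the GENCODE spans of these genes. For Fcgr2b, 187 of the 250 bases lie in annotated exons of the gene. Matches or their absence in these 2 may therefore not describe the main promoter. The Fcgr1 promoter also held 1 match to TTCNNNGAA, and the other 4 held none. Another pattern, TGANTCA, read by AP-1 factors, was in none of the 5. Among 27025 promoters of the same length, 23.1% held GAGGAA, 7.2% TTCNNNGAA and 6.9% TGANTCA. These matches describe the letters and do not show that a factor binds.

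The first question was how the receptor genes moved from 0 h to 3 h and 6 h in the Ics experiment. Fcgr2b rose at each step, Fcgr3 and Fcer1g rose by 3 h and did not pass the test between 3 h and 6 h, and Fcgr4 did not pass the test at any step. Levels are given as CPM (counts per 1000000 counts of the library), in the order of replicates 1 to 4. Changes are log2 values from a fit to all genes that also scales libraries by TMM factors, with the standard error (SE) and the adjusted p of edgeR's quasi-likelihood test. A gene is said to have risen or fallen where that adjusted p is under 0.05.

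Fcgr2b, the inhibitory receptor gene, stood at 64.5, 65.6, 59.8 and 53.7 CPM at 0 h. At 3 h it stood at 115.6, 105.4, 109.0 and 88.7 CPM, and at 6 h at 201.0, 211.1, 229.8 and 186.9 CPM. The 3 times did not overlap, each later library lying above every earlier one. The log2 change was 1.03 ± 0.0927 from 0 h to 3 h (SE, n = 4 and 4 libraries, adjusted p = 2.86e-07) and 0.90 ± 0.0912 from 3 h to 6 h (adjusted p = 2.34e-06). From 0 h to 6 h it was 1.93 ± 0.0941 (adjusted p = 4.27e-10).

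Fcgr3, the activating low-affinity receptor gene, stood at 351.8, 341.6, 338.2 and 347.5 CPM at 0 h. It reached 554.5, 578.7, 535.7 and 576.5 CPM at 3 h and 578.6, 593.2, 615.2 and 635.3 CPM at 6 h. All 8 later libraries lay above the 4 at 0 h, while those at 3 h and 6 h overlapped. The log2 change was 0.95 ± 0.0488 at 3 h (adjusted p = 6.77e-10) and 0.98 ± 0.0489 at 6 h (adjusted p = 5.57e-10). From 3 h to 6 h it was 0.02 ± 0.0483 and did not pass (adjusted p = 0.717).

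Fcer1g, the shared signalling chain, stood at 521.9, 514.8, 497.5 and 522.1 CPM at 0 h. It stood at 666.1, 737.3, 655.2 and 687.9 CPM at 3 h and at 752.3, 734.8, 816.6 and 724.1 CPM at 6 h. Every stimulated library exceeded every library at 0 h, and 3 h and 6 h overlapped. The log2 change was 0.67 ± 0.0602 at 3 h (adjusted p = 2.93e-07) and 0.72 ± 0.0602 at 6 h (adjusted p = 1.13e-07). The step from 3 h to 6 h, 0.06 ± 0.0599, did not pass (adjusted p = 0.485).

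Fcgr4, the activating receptor gene next to Fcgr3, stood at 92.1, 90.1, 91.5 and 86.8 CPM at 0 h, at 72.9, 80.4, 68.6 and 77.2 CPM at 3 h and at 88.7, 80.3, 80.5 and 81.4 CPM at 6 h. In plain CPM the 3 h libraries lay below all 4 at 0 h, but the TMM-scaled log2 change was -0.02 ± 0.0585 (adjusted p = 0.765). It was 0.04 ± 0.0584 from 0 h to 6 h (adjusted p = 0.593) and 0.06 ± 0.0585 from 3 h to 6 h (adjusted p = 0.443). With library totals alone the 3 h change was -0.27 ± 0.0566 and passed (adjusted p = 0.000888). The same setting moved the median of all genes at 3 h from -0.06 to -0.30 and the share of higher among called genes from 49.4% to 29.8%, so Fcgr4 stood near the median gene under both. At 6 h those shares were 49.3% and 37.4%, and from 3 h to 6 h 50.1% and 61.7%. TMM factors ran from 0.912 to 1.12.

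Fcgr1, the high-affinity receptor gene, was near the limit of detection in all 12 libraries. Its counts were 10, 1, 5 and 2 at 0 h, 11, 6, 1 and 0 at 3 h, and 5, 5, 1 and 0 at 6 h, so no library exceeded 0.388 CPM. A count of 0 allows up to 3 counts, or 0.121 CPM in the smallest of these libraries, for counting error only. The gene did not reach the expression minimum and was not tested. In the matching neutrophil libraries, which were not tested against Ics, it stood at 4.81 to 23.1 CPM. Those libraries also held the 6 monocyte markers at 1613 to 2720 CPM in sum, against 752.5 to 850.8 in Ics at 0 h. The part of such markers in the Fcgr1 level was not tested.

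**Figure D1:**
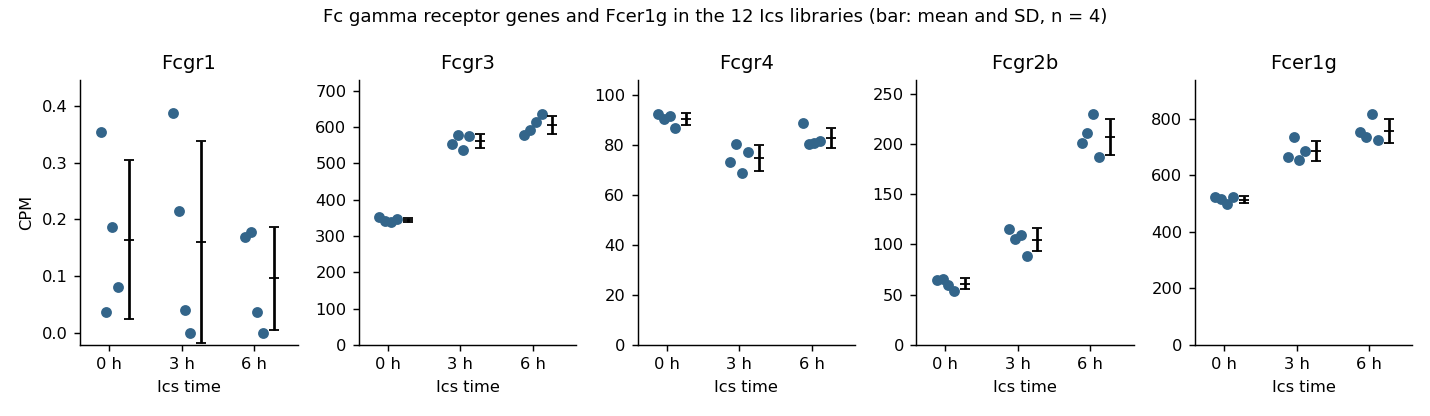
CPM of each gene in the 12 Ics libraries against time (points, 4 libraries a time; bars, mean and SD; each panel has its own scale). Fcgr2b rises at both steps, Fcgr3 and Fcer1g mainly by 3 h, Fcgr4 stays between 68.6 and 92.1 CPM, and Fcgr1 stays under 0.388 CPM.

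Thus 3 of the 4 tested genes rose at 3 h and again 3 of 4 at 6 h against 0 h, and 1 of 4 rose from 3 h to 6 h. None fell. Of all 14996 genes tested, 26.9% rose and 27.5% fell at 3 h, 29.6% rose and 30.4% fell at 6 h, and 20.5% rose and 20.3% fell from 3 h to 6 h, so a change as such was common in this experiment.

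The comparison of genes with each other needs a level per length. At 0 h the order, in CPM per kilobase of mean coding-transcript length, was Fcer1g at 757.6 ± 17.1 (SD, n = 4), Fcgr3 at 321.4 ± 5.64, Fcgr4 at 71.8 ± 1.88, Fcgr2b at 31.8 ± 2.84 and Fcgr1 at 0.0634 ± 0.0543. At 6 h Fcgr2b stood above Fcgr4, at 108.1 ± 9.41 against 65.9 ± 3.22. The lowest Fcgr2b library at 6 h, 97.5, exceeded the highest Fcgr4 library, 70.7. The Fcgr2b length averages 4 transcripts of 1084 to 3544 bases, so its place depends on which of them the cells made.

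The balance of activating to inhibitory transcripts was read as a ratio within each library, which library scaling does not change. The summed counts of Fcgr1, Fcgr3 and Fcgr4 were 6.88, 6.58, 7.19 and 8.09 times those of Fcgr2b at 0 h. At 3 h the ratios were 5.43, 6.26, 5.54 and 7.37, and at 6 h 3.32, 3.19, 3.03 and 3.84. The times 0 h and 3 h overlapped, and all 6 h ratios lay below all earlier ones. The means were 7.19 ± 0.653, 6.15 ± 0.891 and 3.34 ± 0.349 (SD, n = 4). The log2 ratio changed by -0.23 from 0 h to 3 h, but by -0.08 without Fcgr4 in the sum. This sum is a description, with no test.

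Single-gene ratios were tested with a two-sided exact permutation test over libraries, taken as unpaired, in 6 comparisons with Benjamini-Hochberg adjustment. In this test 4 against 4 libraries cannot give a p below 0.0286. Fcgr3 to Fcgr2b changed by -0.08 ± 0.121 on the log2 scale from 0 h to 3 h (SE of the difference, exact p = 0.571, adjusted p = 0.571), both genes having risen. It changed by -0.88 ± 0.125 from 3 h to 6 h and by -0.95 ± 0.101 from 0 h to 6 h (each exact p = 0.0286, adjusted p = 0.0343), with no overlap. In linear terms the mean ratio went from 5.70 ± 0.55 at 0 h to 5.43 ± 0.777 at 3 h and 2.94 ± 0.317 at 6 h. Fcgr4 to Fcgr2b fell already by 3 h. Its change was -1.05 ± 0.125 at 3 h, -1.89 ± 0.096 at 6 h and -0.84 ± 0.139 between those times (each exact p = 0.0286, adjusted p = 0.0343), again with no overlap. Fcgr4 exceeded Fcgr2b in counts in all 4 libraries at 0 h and lay below it in all 8 later ones. Ratios with Fcgr1 were not tested because its count was 0 in 1 library at each later time. On the log2 scale, Fcer1g to the summed activating receptors stood at 0.24 ± 0.0241, 0.11 ± 0.0392 and 0.14 ± 0.0916 at 0 h, 3 h and 6 h.

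**Figure D2:**
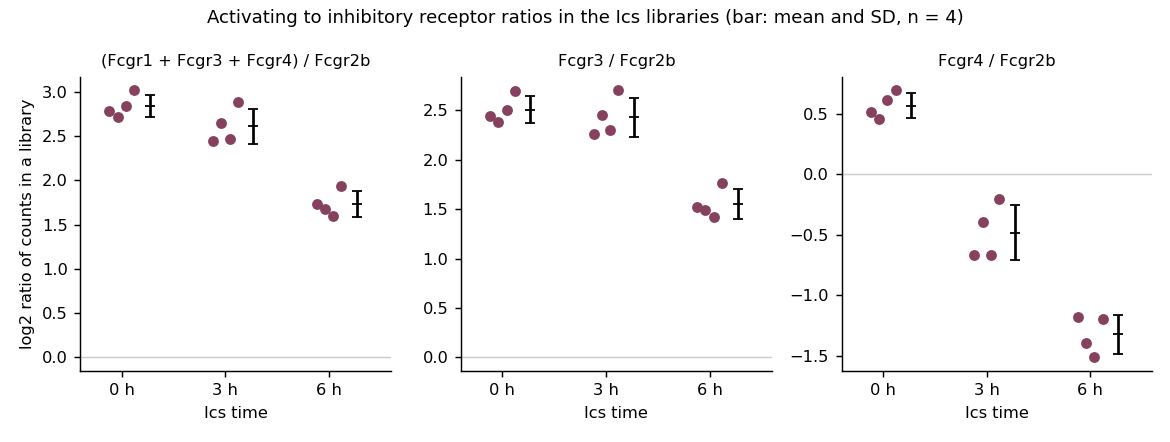
Log2 ratio of counts within each Ics library against time (points, 4 libraries a time; bars, mean and SD). The sum and the ratio of Fcgr3 to Fcgr2b drop between 3 h and 6 h, to means of 1.74 and 1.55, while Fcgr4 to Fcgr2b drops at each step, to -1.32 at 6 h.

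Cell markers also moved over these times. In bulk RNA, fewer cells of a type and less RNA per cell cannot be told apart. The median summed level of 7 neutrophil markers was 75930 CPM at 0 h, 60780 at 3 h and 47370 at 6 h. Of these 7, 1 rose and 2 fell at 3 h (median log2 change -0.10). At 6 h against 0 h, 0 rose and 5 fell (-0.70). The shares of all genes that rose and fell were 26.9% and 27.5% at 3 h, and 29.6% and 30.4% at 6 h. The 5 macrophage markers went from 56.9 to 62.8 CPM at 0 h to 171.3 to 208.9 at 3 h and 243.2 to 275.7 at 6 h, and C1qa and C1qb, which mark tissue macrophages, were at 0 in all 4 libraries at 6 h. The 5 dendritic cell markers went from 60.2 to 79.2 CPM to 284.9 to 479.8 and 323.8 to 502.8. Of these 5, the integrin gene Itgax alone held a median of 69.5, 343.1 and 369.6 CPM. Of the 6 monocyte markers, 2 rose and 4 fell at 3 h (median log2 change -0.86), and 1 rose and 4 fell at 6 h against 0 h (-1.06). Among them Csf1r, the receptor gene of monocytes and macrophages, stood at 138.8 to 178.5, 385.7 to 433.3 and 466.5 to 542.2 CPM, whereas Ly6c2 stood at 579.1 to 677.1, 324.8 to 406.3 and 239.6 to 257.5 CPM. The part of these shifts in the receptor changes was not tested. B cells carry Fcgr2b as their only Fc gamma receptor, and the 5 B cell markers together stood at 8.37 to 14.1 CPM in all 12 libraries.

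Genes of the wider pathway were taken from 4 lists. The counts in each list stand beside the shares of all genes tested. These were 26.9% risen and 27.5% fallen at 3 h, and 29.6% and 30.4% at 6 h against 0 h. From 3 h to 6 h they were 20.5% and 20.3%. Whether a list differs from these shares was not tested. Among 11 receptors and chains that pair with or resemble the common gamma chain, 9 were tested. Of these, 6 rose and 0 fell at 3 h (list median log2 change 0.47, against -0.06 for all genes). At 6 h against 0 h it was again 6 and 0 (median 0.75 against -0.06), and from 3 h to 6 h 3 and 2 (-0.03 against -0.03). Clec4e, Clec4d and Clec4n code Mincle, MCL and Dectin-2, lectins that signal through the common gamma chain. Clec4n rose most, by 4.02 ± 0.197 at 3 h, from 8.13 ± 2.64 to 111.0 ± 13.7 CPM (SD, n = 4). Clec4d rose by 1.81 ± 0.0777 at 3 h and by a further 0.39 ± 0.0753 by 6 h, to 2337 ± 218.3 CPM. Clec4e rose by 2.27 ± 0.0818 to 1146 ± 122.9 CPM and then changed by -1.23 ± 0.0791, to 518.1 ± 31.5 CPM. Pira2, a paired immunoglobulin-like receptor gene, rose by 0.47 ± 0.0528 at 3 h and 0.75 ± 0.0528 at 6 h. For these 4 genes the groups compared did not overlap.

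Of 20 kinases, adaptors and enzymes downstream of the activating receptors, 12 rose and 3 fell at 3 h (median 0.42 against -0.06), and 9 rose and 3 fell at 6 h (0.24 against -0.06). From 3 h to 6 h 3 rose and 8 fell (-0.05 against -0.03). Syk, the kinase that docks on the phosphorylated gamma chain, rose by 0.61 ± 0.0491 at 3 h, from 971.8 ± 38.3 to 1246 ± 41.4 CPM, and stood 0.50 ± 0.049 above 0 h at 6 h. Card9, Bcl10 and Malt1 code the complex that links Syk to NF-kB, and they did not move together. Card9 fell by 1.42 on the log2 scale at 3 h, from 190.5 ± 8.37 to 59.9 ± 2.27 CPM, while Bcl10 rose by 1.06 ± 0.0555 and Malt1 by 1.66 ± 0.131. At 6 h Card9 stood at -0.74 ± 0.0622 against 0 h, having risen by 0.68 ± 0.063 since 3 h. Vav3, a guanine nucleotide exchange factor, rose late, by 0.77 ± 0.0598 from 3 h to 6 h. Over the same step the adaptor Lcp2 (SLP-76) changed by -0.66 ± 0.0772 and the phosphoinositide 3-kinase subunit Pik3r5 by -0.43 ± 0.0502.

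On the inhibitory side, 5 of 8 tested phosphatases and adaptors rose and 1 fell at 3 h (median 0.63 against -0.06), with 5 and 1 again at 6 h (0.32 against -0.06). From 3 h to 6 h 1 rose and 5 fell (-0.48 against -0.03), while Fcgr2b itself went on rising. Inpp5d, which codes SHIP1, the phosphatase recruited by Fcgr2b, rose by 0.90 ± 0.0712 at 3 h, from 334.3 ± 21.2 to 525.2 ± 42.2 CPM, and then changed by -0.56 ± 0.0709, to 376.6 ± 25.1 CPM. Ptpn6 (SHP-1) followed the same course, up by 0.83 ± 0.0496 and then -0.53 ± 0.0494. Ptpn11 (SHP-2) rose by 1.02 ± 0.0648 at 3 h and stood 0.92 ± 0.0647 above 0 h at 6 h. Cblb, a ubiquitin ligase gene, rose by 1.95 ± 0.135 at 3 h and changed by -0.79 ± 0.128 after, at no more than 6.92 ± 0.267 CPM on average. Of the docking proteins, Dok1 rose by 1.25 ± 0.115 at 6 h and Dok2 changed by -1.53 ± 0.131.

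Of 11 other receptors for antibody, 5 were tested; 0 rose and 3 fell at 3 h (median -0.97 against -0.06), 1 rose and 2 fell at 6 h (-0.67 against -0.06), and 2 rose and 0 fell from 3 h to 6 h (0.37 against -0.03). Trim21, the receptor for antibody inside the cell, fell by 1.35 on the log2 scale at 3 h, from 17.0 ± 1.73 to 5.62 ± 0.5 CPM, and was at 8.8 ± 1.55 CPM at 6 h. Fcrl1, an Fc receptor-like gene best known from B cells, changed by -0.54 ± 0.102 at 3 h and 0.52 ± 0.0988 at 6 h, each against 0 h.

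The genes whose log2(CPM + 1) followed each member most closely over the 12 Ics libraries differed between members. For Fcgr2b they were Arl8a, Washc5, Prdx1 and Ctsb (Pearson r 0.994 to 0.991). For Fcgr3 they were Retreg3, Nadk, Bcl10 and Ctdsp2 (0.993 to 0.992), for Fcer1g mt-Rnr2, Mfsd14a, Wdyhv1 and Rab10 (0.994 to 0.985), and for Fcgr4 Vac14, Idh3g, Psmd12 and Nubp2 (0.968 to 0.955). Fcgr3 and Fcer1g had r = 0.971 with each other, Fcgr2b had 0.867 with Fcgr3, and Fcgr4 had -0.649 with Fcgr3. These values describe 3 sets of 4 libraries that share their times and totals.

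The next question was how the genes were spread over blood, neutrophils, monocytes and skin. In the 25 matching libraries, Fcgr4 and Fcer1g were higher in neutrophils than in monocytes, Fcgr1 was highest in skin, and blood was lowest for most of the family. CPM here leave out haemoglobin genes, which took up 89.2% to 93.9% of counts in the matching blood libraries. The lowest, median and highest library are given for groups of more than 5. Of all counts, the 7 neutrophil markers summed to 66920 to 117400 CPM in neutrophils and 1619 to 15890 in monocytes. The 6 monocyte markers overlapped, at 1613 to 2720 and 774.7 to 6746 CPM. Among them Csf1r stood at 154.7 to 269.0 CPM in neutrophils and 25.4 to 864.5 in monocytes. The part of this make-up in the differences was not tested. IVIG and PBS libraries of a tissue were pooled, and one fit covered 18715 genes. Title numbers recur between tissues, such as S3 number 13 in blood, neutrophils and monocytes, so some libraries may be paired. The fit took all libraries as unpaired. All matching skin libraries carry S5 in their titles and all matching blood libraries carry S3. Tissue and title series therefore cannot be told apart between skin and blood. Most matching neutrophil libraries also carry S3, and the comparison within S3 held no skin library.

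Fcgr1 stood at 0.416, 5.17 and 8.15 CPM in blood, 4.81, 10.2 and 23.1 in neutrophils, and 2.38, 20.5 and 40.7 in monocytes. The 4 skin libraries were at 30.7, 51.02, 102.4 and 209.9 CPM. Skin lay above every neutrophil and blood library and overlapped with the monocytes. The log2 difference of skin was 2.53 ± 0.449 from neutrophils (adjusted p = 2.68e-05) and 1.81 ± 0.465 from monocytes (adjusted p = 0.00186). The latter no longer passed without skin PBS replicate 2, at 1.13 ± 0.479 (adjusted p = 0.055). Neutrophils differed from monocytes by -0.72 ± 0.395, which did not pass (adjusted p = 0.19). Without the 4 monocyte libraries of fewer genes that difference was -1.20 ± 0.441 (adjusted p = 0.0438). In the order skin, monocytes, neutrophils, blood, each pair of neighbours passed in this fit except monocytes and neutrophils.

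Fcgr3 stood at 130.8, 227.3 and 358.9 CPM in neutrophils, 6.82, 81.4 and 239.2 in monocytes and 15.8, 38.7 and 58.3 in blood. Skin was at 139.1, 176.4, 187.4 and 194.2 CPM. Neutrophils were higher than monocytes by 1.17 ± 0.313 on the log2 scale (adjusted p = 0.00652) although the libraries overlapped. That difference was 0.62 ± 0.358 and did not pass without the 4 monocyte libraries of fewer genes (adjusted p = 0.209). Among libraries whose titles carry the series number S3 it was 0.33 ± 0.338 and did not pass either (adjusted p = 0.508). Both settings leave out the same 4 monocyte libraries. Skin differed from neutrophils by -0.96 ± 0.379 (adjusted p = 0.0309), but not under another scaling, at -0.64 ± 0.362 with size factors of the kind DESeq2 uses (adjusted p = 0.13), and leaving out any 1 of the 4 skin libraries ended the call (-1.01 to -0.88, adjusted p 0.0505 to 0.0872). Skin and monocytes differed by 0.20 ± 0.369 (adjusted p = 0.672).

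Fcgr4 had the largest difference of the 5 between neutrophils and monocytes. It stood at 31.6, 46.1 and 82.6 CPM in neutrophils and at 24.4, 39.4, 89.5 and 125.2 CPM in skin. In monocytes it stood at 0, 4.42 and 7.37 CPM, and blood was at 3.43, 7.75 and 13.4 CPM. The lowest neutrophil library was above the highest monocyte library. Neutrophils were higher than monocytes by 4.03 ± 0.619 on the log2 scale (adjusted p = 1.90e-05) and skin by 3.99 ± 0.661 (adjusted p = 1.54e-05). Without the 4 monocyte libraries of fewer genes these were 3.38 ± 0.52 (adjusted p = 3.51e-05) and 3.38 ± 0.542 (adjusted p = 1.30e-05). Skin and neutrophils differed by -0.04 ± 0.63 (adjusted p = 0.959). The gene had a count of 0 in monocyte IVIG replicate 2 and PBS replicate 3, which allows up to 0.158 and 0.117 CPM, so a fitted difference from monocytes depends in part on how such counts are moderated. Blood differed from monocytes by 1.29 ± 0.615, which did not pass (adjusted p = 0.0937).

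Fcgr2b passed the test in 3 of the 6 pairs of tissues, each time lower in blood. It stood at 71.7, 83.9 and 92.7 CPM in neutrophils, 9.55, 70.8 and 162.2 in monocytes and 32.0, 48.5 and 68.6 in blood, with skin at 99.5, 135.1, 136.3 and 160.2 CPM. Skin lay above the highest neutrophil library, yet after scaling the difference was 0.19 ± 0.217 (adjusted p = 0.474). Neutrophils and monocytes differed by -0.01 ± 0.185 (adjusted p = 1.0), but by -0.51 ± 0.165 without the 4 monocyte libraries of fewer genes (adjusted p = 0.0227). Skin and monocytes differed by 0.18 ± 0.223 (adjusted p = 0.525).

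Fcer1g was the most abundant of the 5 per length in each tissue. It stood at 730.8, 887.5 and 1043 CPM in neutrophils, 73.7, 317.8 and 726.9 in monocytes and 151.6, 182.8 and 381.0 in blood. Skin was at 172.3, 235.7, 287.8 and 398.8 CPM. Every neutrophil library was above every library of the other tissues. The log2 difference from monocytes was 1.09 ± 0.198 (adjusted p = 0.000158). Without the 4 monocyte libraries of fewer genes it was 0.76 ± 0.256 (adjusted p = 0.0281). Skin was lower than neutrophils, at -2.20 ± 0.258 (adjusted p = 6.40e-08), and lower than monocytes, at -1.11 ± 0.246 (adjusted p = 0.000472).

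**Figure D3:**
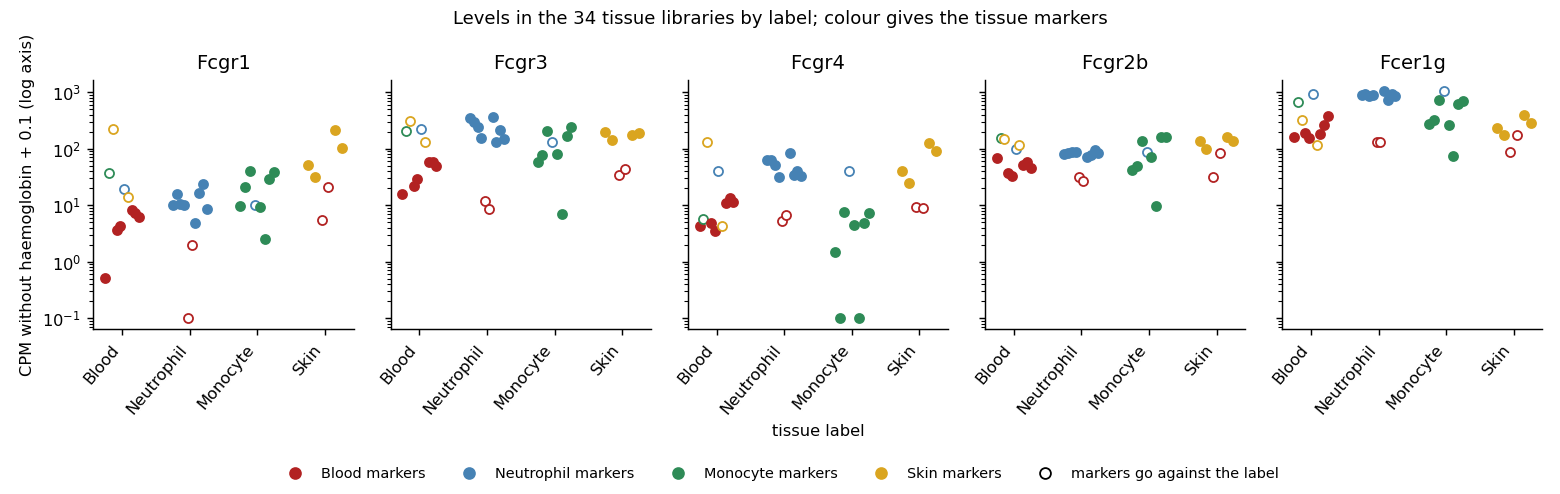
CPM without haemoglobin genes, plus 0.1, on a log axis, for each gene in the 34 tissue libraries by tissue label (each point 1 library; colour, the tissue whose markers it has; open, markers against the label). Matching neutrophil libraries hold Fcer1g at 730.8 to 1043 CPM, and the open point of neutrophil IVIG replicate 5 lies at 132.8 CPM.

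Of the 5 genes, 3 passed the test between neutrophils and monocytes, where 26.4% of all genes did. The counts were 3 of 5 for skin against monocytes (52.4% of all genes) and 3 of 5 for skin against neutrophils (59.4%). All 5 passed for blood against neutrophils (43.7%), each lower in blood, with log2 differences from -0.80 ± 0.199 for Fcgr2b to -2.74 ± 0.637 for Fcgr4. Against monocytes 4 of 5 passed (42.5%), each lower in blood, and against skin 4 of 5 (53.0%), again lower in blood, with Fcer1g at 0.13 ± 0.244 (adjusted p = 0.668). Size factors of the kind DESeq2 uses, in place of TMM, moved the median of all genes from -0.10 to 0.23 for blood against neutrophils and from -0.03 to 0.17 for blood against monocytes. They moved the share of higher among called genes from 46.9% to 62.0% and from 49.8% to 61.7%. Under them Fcgr1 and Fcgr2b no longer passed between blood and neutrophils, at -0.94 ± 0.437 (adjusted p = 0.0836) and -0.38 ± 0.188 (adjusted p = 0.101). Fcgr4 then passed as higher in blood than in monocytes, at 1.61 ± 0.612 (adjusted p = 0.0354). The median of all genes also moved from 0.16 to 0.39 for skin against monocytes and from 0.10 to 0.44 for skin against neutrophils, where Fcgr2b then passed as higher in skin, at 0.52 ± 0.205 (adjusted p = 0.0293). In the matching blood libraries the 5 B cell markers summed to 64.2 to 259.4 CPM of all counts and the 7 neutrophil markers to 11.7 to 50.97, and the part of this make-up in the low activating levels was not tested.

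The ratio of summed activating counts to Fcgr2b had a median of 3.26 in neutrophils (2.26 to 6.23), 2.45 in skin (1.95 to 3.19), 1.64 in monocytes (0.963 to 2.0) and 1.24 in blood (0.297 to 1.48). Neutrophils lay above all monocyte and blood libraries, skin overlapped with neutrophils and, at its low end, with monocytes, and blood overlapped with monocytes. Fcgr3 was the largest part of the sum at the median of each tissue. Alone it was 2.55 times Fcgr2b in neutrophils at the median, 1.39 times in skin, 1.38 times in monocytes and 0.946 times in blood. On the log2 scale Fcgr1 to Fcgr2b was -0.78 ± 0.955 in skin (SD, n = 4) and -2.09 ± 0.528 in monocytes (n = 7), with overlap. Fcgr4 to Fcgr2b was -1.19 ± 0.833 in skin and -4.55 ± 0.457 in the 5 monocyte libraries with a count above 0, and these did not overlap. Fcer1g to the activating sum was -0.30 ± 0.1 in skin, against 1.65 ± 0.442 in neutrophils, 1.80 ± 0.572 in monocytes and 2.20 ± 0.644 in blood, and skin lay below every other matching library. In counts, not per length, the gamma chain lay under the sum of its receptors in all 4 skin libraries, at -0.40 to -0.17. The Ics libraries at 0 h, at 6.58 to 8.09 for the summed ratio, lay above all matching tissue libraries, and the 6 h libraries, at 3.03 to 3.84, lay within the neutrophil range. That difference between experiments was not tested.

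**Figure D4:**
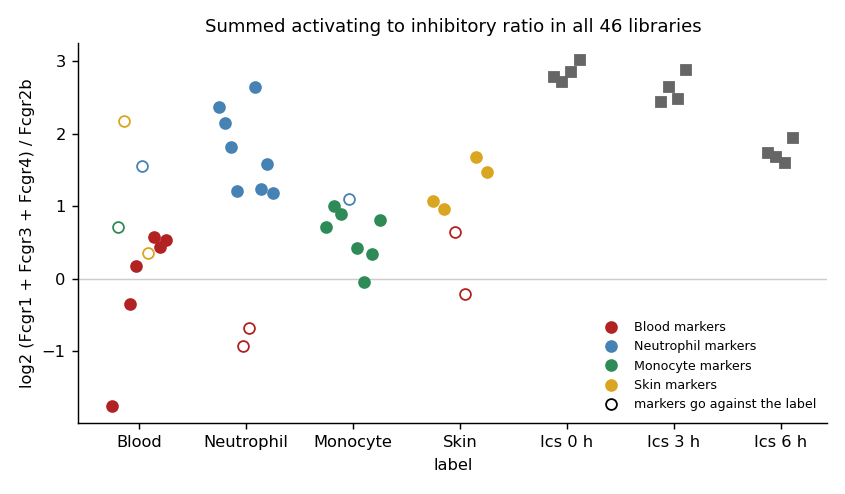
Log2 ratio of summed Fcgr1, Fcgr3 and Fcgr4 counts to Fcgr2b in all 46 libraries by label (circles, tissue libraries coloured by their markers, open where these go against the label; squares, Ics libraries by time). Matching neutrophil libraries run from 1.18 to 2.64 and matching monocyte libraries from -0.05 to 1.00, and Ics libraries step down from 0 h to 6 h.

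The same pathway lists were read between neutrophils and monocytes. Among all 18715 genes tested, 2887 were higher in neutrophils and 2059 lower. Whether a list differs from these shares was not tested. Of 10 tested receptors and chains that pair with or resemble the common gamma chain, 5 were higher in neutrophils and 2 lower (median 0.76 against 0.01 for all genes). Clec4d was higher by 5.13 ± 0.307 on the log2 scale, at 310.1 ± 78.8 against 8.31 ± 3.54 CPM (SD, n = 8 and 7), Clec4e by 3.28 ± 0.423, the receptor gene Tarm1 by 2.82 ± 0.616 and the adaptor gene Hcst (DAP10) by 2.39 ± 0.347. The groups did not overlap for these 4. Of 20 activating signalling genes, 6 were higher and 4 lower (0.19 against 0.01), with the Src-family kinase Fgr at 1.38 ± 0.249, Bcl10 at 0.99 ± 0.161 and the adaptor Lat2 at -1.10 ± 0.205. Of 9 inhibitory genes, 3 were higher and 2 lower (0.14 against 0.01), with Dok3 at 1.31 ± 0.215, Dok2 at 1.21 ± 0.337 and the phosphatase gene Inppl1 (SHIP2) at -1.46 ± 0.277. Of 11 other antibody receptors, 2 were higher and 1 lower (0.16 against 0.01). Among those with at least 5 CPM in the higher group none passed, with Fcgrt, the neonatal receptor that recycles IgG, at -0.61 ± 0.265 (adjusted p = 0.0904).

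Over the 25 matching libraries the closest genes by log2(CPM + 1) were Ifi207, Ctss, Clec4a1 and Clec4a3 for Fcgr1 (Pearson r 0.966 to 0.945), Xbp1, Ppt1, Fam234a and Rheb for Fcgr2b (0.959 to 0.944), and Gyg, Cdc42, Atg3 and Tlr6 for Fcgr3 (0.96 to 0.956). They were Antxr2, Cd300ld, Rab20 and Ndel1 for Fcgr4 (0.94 to 0.931) and Pfn1, Tbc1d10b, Cers6 and Wdr1 for Fcer1g (0.982 to 0.964). Between members r ran from 0.285, for Fcgr1 with Fcer1g, to 0.829, for Fcgr3 with Fcer1g. These libraries share tissues, and the CPM used for r leave out haemoglobin genes.

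The study's own contrast was IVIG against PBS within each tissue. No member passed the test in blood, neutrophils, monocytes or skin, whether or not the libraries with contradicting markers were left out. With all libraries as labelled, 0 genes of any kind passed in the 4 tissues (0.0% in each by edgeR), while 81, 73, 286 and 157 genes had an unadjusted p under 0.05 and DESeq2 called 7, 0, 8 and 3 genes, in the order blood, neutrophils, monocytes and skin. Without the contradicting libraries, 5 genes (0.0477%) passed in blood and 4 (0.0236%) in skin, and 0 (0.0%) in neutrophils and in monocytes. Standard errors of the members were wide, up to 1.18 in blood and 1.79 in monocytes with all libraries.

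In the matching blood libraries the activating receptor genes were apart by label without passing the test. Fcgr3 stood at 15.8, 21.4 and 28.6 CPM in the IVIG libraries and at 57.0, 58.3 and 48.8 CPM in the PBS libraries. Fcgr4 stood at 4.16, 4.63 and 3.43 CPM with IVIG and at 10.9, 13.4 and 11.4 CPM with PBS. Fcgr1 stood at 0.416, 3.47 and 4.19 CPM with IVIG and at 8.15, 7.17 and 6.15 CPM with PBS. For these 3 genes the groups did not overlap, and each IVIG library was lower. The counts behind them were small. Fcgr4 had 10, 16 and 9 counts with IVIG and 32, 41 and 26 with PBS. Fcgr1 had 1, 12 and 11 with IVIG and 24, 22 and 14 with PBS. The log2 differences were -1.09 ± 0.333 for Fcgr3 (adjusted p = 0.74), -1.34 ± 0.357 for Fcgr4 (adjusted p = 0.74) and -1.16 ± 0.601 for Fcgr1 (adjusted p = 0.764). Fcgr2b overlapped, at 68.6, 37.6 and 32.0 CPM with IVIG and 51.3, 58.3 and 45.7 CPM with PBS, a difference of 0.03 ± 0.334 (adjusted p = 0.989). The summed ratio was 0.297, 0.785 and 1.13 with IVIG and 1.48, 1.35 and 1.45 with PBS. Macrophage markers moved with the receptors, at 16.2 to 48.7 CPM with IVIG and 59.3 to 123.9 with PBS over the 5 genes, and the monocyte markers were at 308.1 to 546.3 and 524.2 to 606.1; their part was not tested. With all 10 libraries as labelled the 3 differences were 0.07 ± 0.775, 0.85 ± 1.06 and 2.20 ± 1.18, none passing (adjusted p = 0.9999 each).

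In skin, 2 IVIG and 2 PBS libraries had matching markers. Fcgr1 stood at 51.02 and 30.7 CPM with IVIG and at 209.9 and 102.4 CPM with PBS, a log2 difference of -2.03 ± 0.419 (adjusted p = 0.254). Fcgr4 stood at 39.4 and 24.4 CPM with IVIG and at 125.2 and 89.5 CPM with PBS, a difference of -1.85 ± 0.297 (adjusted p = 0.22). The groups did not overlap for either gene, and neither passed. Fcer1g, at 235.7 and 172.3 against 398.8 and 287.8 CPM, differed by -0.84 ± 0.28 (adjusted p = 0.48). Fcgr3 overlapped, at 194.2 and 139.1 against 176.4 and 187.4 CPM, and Fcgr2b differed by -0.43 ± 0.228 (adjusted p = 0.739). The 2 libraries with skin markers that are labelled blood had the opposite order, with Fcgr1 at 220.4 CPM in the one labelled IVIG and 13.7 CPM in the one labelled PBS, and Fcgr4 at 131.4 and 4.11 CPM. The macrophage markers summed to 1563 to 2631 CPM in the matching IVIG skin libraries and to 3163 to 3821 in the PBS ones. Monocyte markers summed to 583.4 to 1124 and 1196 to 1287 CPM, and fibroblast markers to 26190 to 34690 and 13610 to 15980 CPM. The part of these markers was not tested.

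In the 8 matching neutrophil libraries IVIG and PBS overlapped for all 5 genes, and the differences ran from -0.21 ± 0.402 for Fcgr1 to 0.20 ± 0.388 for Fcgr3. Fcgr2b had the smallest error, at 0.01 ± 0.11 (adjusted p = 0.9997). In monocytes, with 3 IVIG and 4 PBS libraries, the differences ran from -0.47 ± 1.84 for Fcgr4 to 0.34 ± 0.522 for Fcgr1. In both cell types the spread between libraries of one label was larger than the difference between labels.

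**Figure D5:**
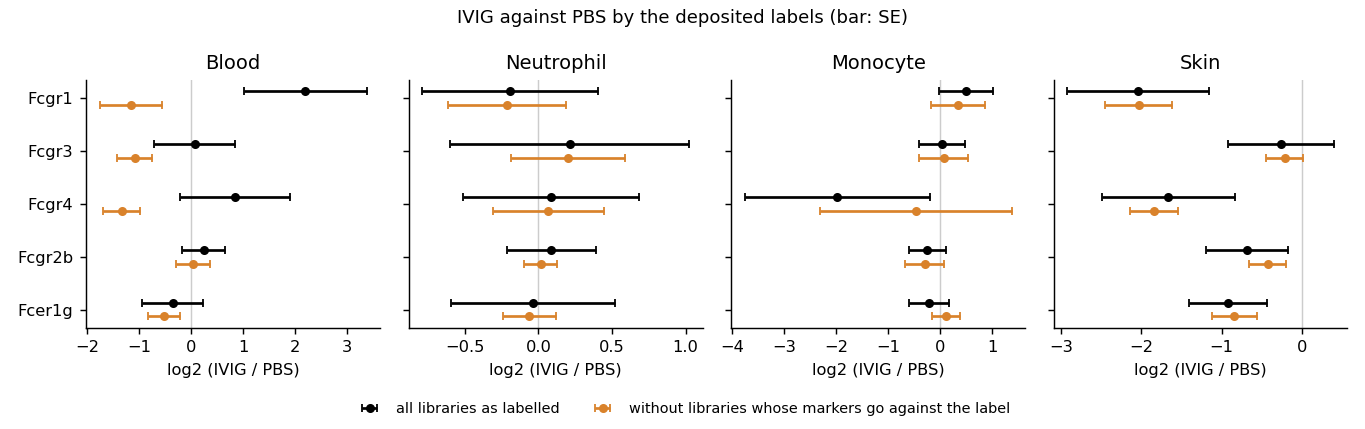
Log2 difference of IVIG from PBS for each gene by tissue label, with its SE (black, all libraries as labelled; orange, without the libraries whose markers go against their label; each panel has its own scale). No difference passed the test, and in blood Fcgr1 moves from 2.20 to -1.16 between the settings.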

How the data were processed

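The deposited table gives expected counts, estimated per gene and, by the table's name, scaled from TPM by length, for 46264 genes in 46 libraries, which the authors made with kallisto 0.46.1 on GRCm38, per the submitters' processing notes. The step from transcripts to genes and any filter are not given in the sources used here. Values were rounded to whole numbers. Replicates were compared before use, and 0 of 77 pairs were identical.

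Comparisons were made in edgeR 4.0.16 (R 4.3.3) by its quasi-likelihood F test, after TMM scaling and filterByExpr at a minimum count of 10, and p-values were adjusted by Benjamini-Hochberg over all genes tested, with a limit of 0.05. The 12 Ics libraries shared 1 fit. IVIG and PBS were fitted per tissue label, and tissues in 1 fit of the 25 libraries with matching markers, haemoglobin genes left out. The limits were haemoglobin over 10% of counts for blood, Krt5 plus Krt14 over 100 CPM for skin and S100a8 plus S100a9 over 10000 CPM for neutrophils. An SE is the log2 change divided by the square root of F. Ratios were tested by exact permutation (scipy 1.17.1). The 9 ratio tests planned became 6, since Fcgr1 had counts of 0.

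The genes, lists, marker limits and tests were chosen with earlier results of these data known, so they are no independent support for patterns those results showed. From each list the text names the 4 genes of smallest p among those averaging 5 CPM or more in either group, and for each member the 4 genes of highest correlation. Not every gene that this rule picks is reported here. The fit was tested on simulated data. Alternatives were DESeq2 1.42.0, other scaling, no expression filter, haemoglobin kept, and subsets and covariates by label or title series. A block by replicate number was used in Ics. Each library was left out in turn for Ics and for IVIG against PBS. Between tissues only the matching skin libraries were left out in turn. Positions are from GENCODE vM21 and promoters from RefSeq on GRCm38.p6. Intervals and floors cover counting error only.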

Additional observations from a re-analysis of the deposited data

Results flagged for a closer look

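In 84 sets of libraries and values, 10 had a highest or lowest library far from the rest by Dixon's criterion, which chance alone meets in about 1 of 20 groups, or 5%. Of the 10, 8 were libraries whose markers go against their label. Among the libraries labelled blood, IVIG replicate 3, with skin markers, had Fcgr1 at 220.4 CPM without haemoglobin, where the other 4 had 0.416 to 36.5, and Fcgr4 at 131.4, where the others had 3.43 to 5.5. Blood PBS replicate 1, with neutrophil markers, had Fcgr4 at 39.7 CPM (others 4.11 to 13.4), a log2 ratio of Fcgr3 to Fcgr2b of 1.22 (others 0.0 to 0.18) and a log2 ratio of the activating sum to Fcgr2b of 1.56 (others 0.36 to 0.57). Monocyte PBS replicate 1, with neutrophil markers, had Fcgr4 at 40.1 CPM (others 0.0 to 7.17). Neutrophil IVIG replicate 5, with blood markers, had Fcgr2b at 31.9 CPM (others 80.8 to 86.1) and Fcer1g at 132.8 CPM (others 838.5 to 921.9).

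The other 2 had no contradicting marker. Fcgr4 in Ics 6 h replicate 1 was at 88.7 CPM, where the other 3 libraries had 80.3 to 81.4. In skin PBS replicate 2 the log2 ratio of Fcgr3 to Fcgr2b was 0.14, where the other 3 matching skin libraries had 0.46 to 0.52.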

How the results depend on the processing

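In the Ics comparisons each passing change of Fcgr2b, Fcgr3 and Fcer1g kept its direction and still passed under DESeq2, other size factors, no expression filter and leaving out each library. Changes that did not pass lay near 0 and could change sign, as Fcgr4 at 3 h did with DESeq2 (0.0059). The log2 ratios of Fcgr3 and of Fcgr4 to Fcgr2b kept their direction and moved by less than their spread when a library was left out; they were not tested again, since 3 against 4 libraries cannot pass. With library totals alone (added after seeing the data) Fcgr4 passed at 3 h, at -0.27, and Fcer1g from 3 h to 6 h, at 0.14. In that setting the rises from 0 h still passed but were smaller. At 3 h they were 0.78 for Fcgr2b, 0.70 for Fcgr3 and 0.42 for Fcer1g, and at 6 h 1.77, 0.81 and 0.56. Levels printed in CPM are likewise without TMM scaling. Without Fcgr4 the summed log2 ratio changed by -0.95 from 0 h to 6 h, in place of -1.10, and by -0.08 to 3 h, in place of -0.23. Same-numbered Ics libraries deviated together with r over 0.1 in 8 of 12 pairs (0.048 to 0.184, against -0.098 to 0.017 for other numbers). All 12 libraries correlated best with their own number, so libraries of the same number may be paired. The main fit and the ratio tests took the libraries as unpaired, and no paired ratio test was run. Within each number the summed ratio was lower at 3 h than at 0 h. With the number as a block, Fcgr2b changed by 1.03, 1.963 and 0.93 for 3 h against 0 h, 6 h against 0 h and 6 h against 3 h, and 8462, 9403 and 6382 genes were called in place of 8163, 8999 and 6117.

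For IVIG against PBS, 0 genes called became 7 in blood, 8 in monocytes and 3 in skin with DESeq2, and 5 in blood and 4 in skin without the contradicting libraries. No member passed under any alternative run, but without the contradicting libraries the direction of Fcgr1, Fcgr3 and Fcgr4 in blood changed.

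Between tissues, taking all 34 libraries as labelled lowered the genes called to 1299 (neutrophil against monocyte), 7290 (skin against neutrophil), 4593 (blood against neutrophil) and 2 (blood against skin), from 4946, 11125, 8184 and 9928. It turned Fcgr1 in blood from lower to higher, at 1.296 against neutrophils and 0.45 against monocytes, neither passing. It ended the calls of Fcgr3 (0.84), Fcgr4 (2.54) and Fcer1g (0.61) for neutrophil against monocyte, Fcgr1 for skin against monocyte (1.48) and Fcgr3 for skin against neutrophil (-1.02). In blood it ended those of Fcgr2b (-0.11), Fcgr3 (-1.09) and Fcgr4 (-1.16) against neutrophil, Fcgr2b (-0.27), Fcgr3 (-0.25) and Fcer1g (-0.70) against monocyte, and Fcgr1 (-1.03), Fcgr2b (-0.29), Fcgr3 (-0.077) and Fcgr4 (-0.94) against skin. For neutrophil against monocyte, Fcgr3 lost its call within series S3 (0.33) and without the 4 monocyte libraries of fewer genes (0.62, added after seeing the data). Fcgr1 passed as lower in both (-0.9985 and -1.20), and Fcgr2b in the latter (-0.51). Both settings leave out the same 4 monocyte libraries. For skin against neutrophil, Fcgr3 lost its call with DESeq2 (-0.64), other size factors (-0.64), no filter (-0.82) and haemoglobin kept (-0.88), and Fcgr2b passed with DESeq2 (0.52) and other size factors (0.52). For blood against neutrophil, Fcgr1 (-0.94 with both) and Fcgr2b (-0.39 and -0.38) lost their calls with DESeq2 and other size factors. For blood against monocyte Fcgr4 passed with both (1.64 and 1.61). Leaving out each skin library in turn gave 1.13 to 2.12 for Fcgr1 against monocyte and -1.01 to -0.88 for Fcgr3 against neutrophil.

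The causes were not tested. The labels limit the tissue results, since 9 of 34 tissue libraries have markers of another tissue and each IVIG comparison rests on 2 to 5 libraries a group. Depth limits Fcgr1 in Ics, Fcgr4 in monocytes and both genes in blood. Fcgr2b and Fcgr3 share sequence that the estimation must split.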
